A study of Mus musculus with 8 samples.

Results

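The array design used here held 16194 probes that are named by a stretch of the mouse genome (build mm9) in place of a transcript accession, and all but 13 of these names end in a strand suffix, F or R. They were selected on their measured detection: a probe stayed if the scanner software judged it well above background on both arrays of any 1 of the 4 groups. That left 10099 of the 16194 interval probes (62.4%), among 39099 kept probes of the 55681 on the array that are no controls. The kept interval probes are described below by their detection, strand, position and differences. The files do not say that an interval is intergenic or that its transcript is noncoding, and neither was tested. Probe sequences and a gene annotation of mm9 were not used here, so each interval is given by its position and suffix and by no gene name.

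Arrays of this kind carry interval probes to follow long intergenic noncoding RNAs. These are transcripts that RNA polymerase II makes from the DNA between protein-coding genes and that are often capped, spliced and polyadenylated like messenger RNA. As a class they are known for low levels and for expression in few cell types, and some, such as Meg3 and Morrbid, are known to act in blood stem cells or in the survival of myeloid cells.

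RNA came from bone marrow of female mice of strain C57/Bl6 at 12 weeks of age, sorted into a pair of progenitor populations. LSK cells, which carry Sca1 and cKit and no lineage markers, include the blood stem cells. GMP cells, which lack Sca1 and carry cKit, CD34 and CD16/32, are committed to granulocytes and macrophages. The deficient mice lacked, per the labels, ACKR1, an atypical receptor that takes up chemokines. They were a line backcrossed to C57Bl/6J for more than 12 generations and bred from heterozygotes, and wild-type littermates were the controls. The labels give no details of the allele. There were 2 arrays in each of the 4 groups (wild-type LSK, deficient LSK, wild-type GMP, deficient GMP), called replicates 1 and 2. The labels do not say whether the arrays of a group held RNA of separate animals, so each p-value reflects the spread among these samples alone, and that spread may be technical.

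Each level below is log2 of the processed signal divided by its array's 75th percentile, and a difference is called where the Benjamini-Hochberg adjusted p of limma over all 39099 kept probes is under 0.05. Deficient LSK replicate 2 was a weak array: the 75th percentile of its signal stood at 24.6, where the 7 other arrays had 197 to 770, and the dimmest signal well above background lay at −1.44 there and between −6.69 and −4.81 elsewhere. Over the kept interval probes its r to its own replicate was 0.708, against 0.922 between the wild-type GMP arrays, 0.858 between the wild-type LSK arrays and 0.810 between the deficient GMP arrays. The lowest level of any probe was −6.59 and −7.92 on the wild-type LSK arrays, −7.11 and −7.62 on the wild-type GMP arrays and −6.98 on deficient GMP replicate 2. A reading at such a value is the bottom of its array's scale. Differences and SEs that include it rest in part on an unmeasured value. Deficient and wild-type samples lay in different columns of 1 slide, so the column cannot be told apart from genotype. The Ackr1 probe read −0.66 and −1.05 on the wild-type and −0.70 and −0.85 on the deficient LSK arrays, and −0.50 and −0.45 on the wild-type and −0.069 and −0.16 on the deficient GMP arrays, and it was not called in either population (differences of 0.081 in LSK and 0.36 in GMP). It was well above background on 7 of 8 arrays, and which part of the gene the probe covers was not tested, so it does not check the genotype labels. Between the wild-type populations, 6 of 17 kept stem cell genes were called lower in GMP and 5 of 15 kept granulocyte-monocyte genes were called higher, among them Elane, neutrophil elastase. In bulk RNA, fewer cells of a type and less RNA per cell cannot be told apart.

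Interval probes were above background less often than probes for known transcripts. The shares kept were 62.4% of interval probes, 77.3% of 26392 probes with an NM accession, 68.5% of 771 probes with an NR accession and 65.2% of 4226 probes for Ensembl transcripts. On single arrays, 63.4% and 65.4% of interval probes were well above background on the wild-type and 62.6% and 26.3% on the deficient LSK arrays. On the GMP arrays these were 57.0% and 62.3% for wild type and 53.1% and 56.5% for deficient. On all 8 arrays the share was lowest for interval probes and highest for NM probes, and the weak array had the lowest share of each class. These shares are what the choice of probes rests on and are given without a test.

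**Figure D1:**
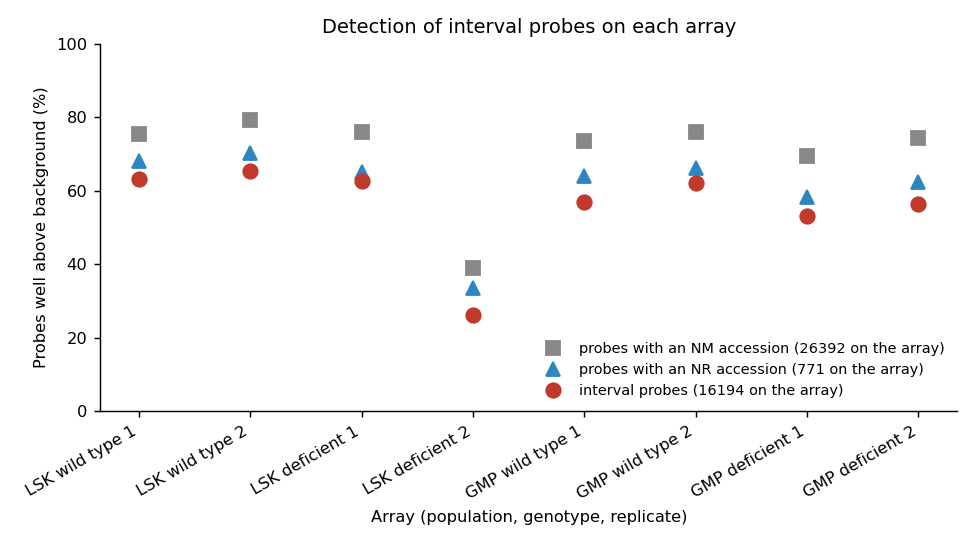
Share of probes well above background (percent, vertical axis) on each of the 8 arrays (horizontal axis) for interval probes (circles), NR probes (triangles) and NM probes (squares). Interval probes lie lowest on every array, between 53.1% and 65.4% on 7 of them and at 26.3% on deficient LSK replicate 2.

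Of the 10099 kept interval probes, 3706 (36.7%) were above background on both arrays of all 4 groups, 3666 in 3 groups, 1358 in 2 groups and 1369 in 1 group. Much of this pattern lay with the weak array: 3515 of the probes kept through 3 groups lacked only deficient LSK, and 7103 (70.3%) were above background on all 7 other arrays. Among probes kept through 1 group, 791 were kept through wild-type LSK, 324 through wild-type GMP, 177 through deficient GMP and 77 through deficient LSK. A probe kept through 1 group was chosen for its detection there, which favours a higher level there. Counts and medians over the kept probes therefore describe them and support nothing. Such a probe need not be the brightest there, since the dimmest signal well above background differed between arrays. Probe A_30_P01021552, kept through wild-type GMP alone, read −3.69 and −3.63 there and −5.65 and −1.15 on the deficient LSK arrays. Of the 6095 interval probes that were left out, 2449 were above background on at least 1 array. Their brightest group had a median level of −3.55, and that of probes kept through 1 group was −3.17.

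The probes tile 4610 intervals, counted once per strand, with 1 to 10 probes each (median 3) and a median length of 10676 bp. At least 1 probe was kept in 4017 of these intervals, every probe in 1543 and none in 593. Of 8010 R probes 64.4% were kept, and of 8171 F probes 60.4%. By chromosome the share ran from 55.8% on chromosome 10 to 69.6% on chromosome 5, and by quartile of interval length from 59.8% in the shortest to 63.7% in the third. Probes for both strands existed at 1067 positions, and at 905 of them probes of both strands were kept, against 62 with F probes alone and 79 with R probes alone. Whether each probe reads only its own strand was not tested.

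Pairs of probes of the same strand moved together more closely than pairs of F and R probes, over sets of intervals that differ. For each of 2735 intervals with several kept probes of 1 strand, 2 of the probes were paired, and their differences between GMP and LSK in wild type correlated at r = 0.518 over pairs. For the 905 positions with kept F and R probes, r was 0.105. The 2735 intervals include positions that have probes of 1 strand only. The same-strand r at the 905 positions alone was not computed. These correlations are across probe pairs that share the 4 arrays, and the pairs are not replicates. In the comparison of genotypes in LSK the corresponding values were 0.348 and −0.053, and in GMP 0.325 and 0.033.

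**Figure D2:**
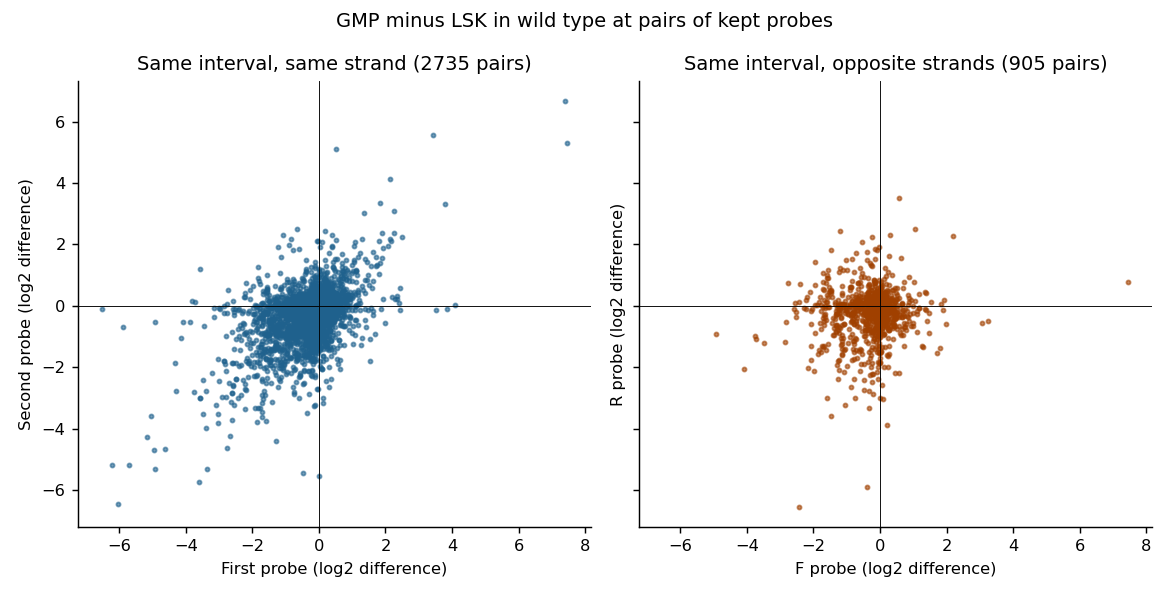
Log2 difference between GMP and LSK in wild type for pairs of kept probes of 1 interval (each point is a pair). Left: 2735 pairs of the same strand, which spread along the diagonal (r = 0.518). Right: 905 pairs of F and R probes, which do not (r = 0.105).

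GMP were compared with LSK in wild type to see which intervals differ between the stem cell compartment and its granulocyte-macrophage progeny. Of the 10099 kept interval probes, 71 were called, 15 higher and 56 lower in GMP (0.703%), beside 1.54% of all kept probes (0.379% higher and 1.16% lower). At an unadjusted p under 0.05 there were 486 (4.81%), beside 7.96% of all kept probes. The called differences ran from 3.52 to 7.46 upward and from −7.01 to −3.32 downward, and 10028 interval probes were not called. Over all kept interval probes the median difference was −0.19 (quartiles −0.72 and 0.14), beside −0.013 over all kept probes.

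The called probes lay in few places. They fell in 42 intervals at 23 loci, a locus being a run of intervals less than 50 kb apart, and 52 of the 71 lay in the 8 loci described below. Of the 56 lower probes 43 were on R and 13 on F, beside 5155 R and 4938 F probes kept. The R calls were not spread evenly: 12 of the 43 lay at a single locus on chromosome 13 and 11 at another on chromosome 3. Probes of a locus are not replicates, so this count shows no general difference between strands. In the intervals with a called probe, 74 of the 79 other kept probes of the same strand had a difference of the same sign. Over all 10099 kept interval probes, 6544 differences were negative in this comparison and 3555 positive. Of the 16 positions that also had kept probes of the opposite strand, 1 had a called probe there.

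The calls depended on single arrays and on the scaling. With wild-type LSK replicate 1 left out none of the 10099 was called, and with wild-type LSK replicate 2 left out 4 were. Leaving out replicate 1 or 2 of wild-type GMP left 12 and 5 calls. In these fits a single array stands for its group and is assumed to vary like the others. With each array shifted to its median, 14 were called higher and 15 lower, after quantile normalization 5 higher and 2 lower, and with normexp background correction 5 higher and 23 lower. With arrays weighted, 58 were called higher and 278 lower (336 in all), and with only the compared groups in the fit 31 and 129 (160 in all). The scaling moved the median difference of all kept probes in this comparison from −0.013 to 0.31 with the median shift.

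The deficient arrays enter neither mean of this comparison, but they entered the shared estimate of the spread that the calls rest on. A probe whose deficient replicates lay close together was called more readily, which favours separation on those arrays. The counts below are therefore not independent of the calls. Of the 56 probes called lower in wild type, 55 also had a negative difference in the deficient mice (98.2%), and on 52 both GMP arrays lay below both LSK arrays. Of the 15 called higher, 14 had a positive difference and 9 did not overlap. Over all kept interval probes the same sign occurred in 65.4% and separation the same way in 29.2%, and over all kept probes in 67.0% and 31.0%. These shares join both directions: in deficient mice 7816 interval probes had a negative difference and 2283 a positive one. The differences were smaller in deficient mice, with a median of −2.72 against −4.64 for the lower probes and of 1.35 against 5.29 for the higher ones. Against deficient LSK replicate 1 alone the medians were −2.85 and 1.64. The probes were chosen for large differences on the wild-type arrays, and such a choice favours smaller values on other arrays. These medians therefore do not show that the differences depend on genotype. No interval probe was called between GMP and LSK in deficient mice with limma, nor was any other probe (0%), while 1380 interval probes (13.7%) had an unadjusted p under 0.05, beside 16.2% of all kept probes. With normexp background correction 27 were called higher and 35 lower (62 in all), and with only the compared groups in the fit 46, all lower. With deficient LSK replicate 1 left out, so that the weak array stood for the group, 989 were called (9.79%), beside 11.7% of all kept probes, and with the weak array left out none.

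**Figure D3:**
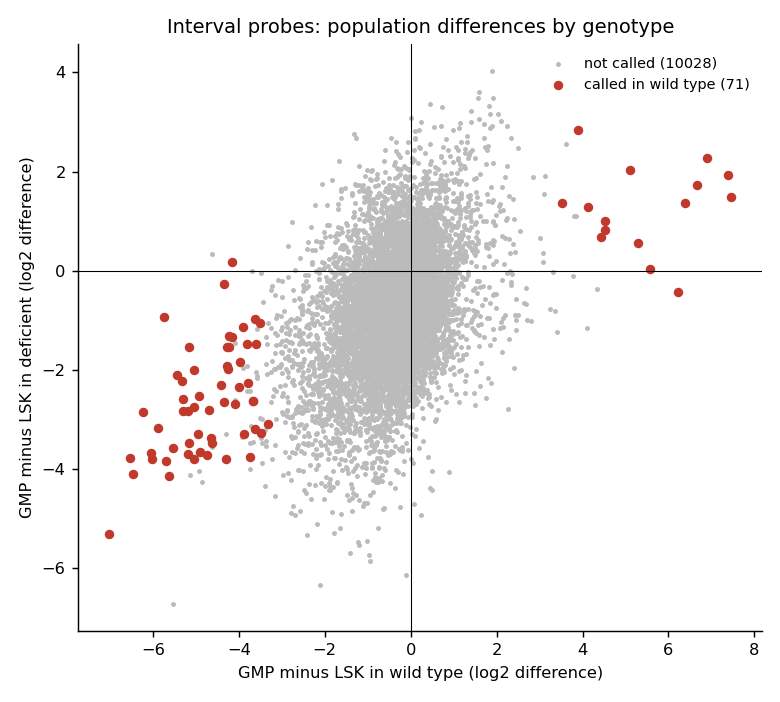
Log2 difference between GMP and LSK in wild type (horizontal axis) and in deficient mice (vertical axis) for each of the 10099 kept interval probes. The 71 called in wild type (red) lie at both ends of the horizontal axis, and 55 of the 56 lower and 14 of the 15 higher have the same sign on both axes.

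The locus with the most called probes was chr13:28477490-28985604, where 32 of 42 probes were kept. On R, 12 of 27 kept probes were called lower in GMP, the median difference was −3.11, and 23 of 27 differences were negative (22 or 23 under the other scalings). On 22 of the 27, both GMP arrays lay below both LSK arrays, beside 20.4% of all kept probes. The loci described here were chosen for their called probes in this same comparison. Their counts without overlap in wild type are high by that choice and support nothing further. On F, none of 5 kept probes was called and their median difference was −0.58. Probe A_30_P01029325 (chr13:28537223-28539860, R) read −0.21 and −0.11 on the wild-type and −1.73 and −3.06 on the deficient LSK arrays, and −5.09 and −6.08 on the wild-type and −4.09 and −4.91 on the deficient GMP arrays. LSK lay above GMP in both genotypes with no overlap, and the wild-type LSK arrays lay above the deficient ones. Its difference in wild type was −5.43 (SE 0.74, adjusted p = 0.00929). It was above background on neither wild-type GMP array, so the ratio is at least 43-fold. Such a bound divides the mean of the brighter group by a floor for the dimmer group, which on each array is the probe's own signal or, where higher, the dimmest signal still well above background there. Probe A_30_P01022276 (chr13:28947034-28949166, R) read 3.68 and 2.58 on the wild-type and 1.64 and 0.29 on the deficient LSK arrays, and −1.99 and −2.08 on the wild-type and −0.46 and −0.68 on the deficient GMP arrays, above background on all 8 arrays, with a difference of −5.16 (SE 0.73, adjusted p = 0.0103) in wild type. On 16 of the 27 R probes both deficient LSK arrays lay below both wild-type ones, beside 19% of all kept probes. On 12 of the 27 both deficient GMP arrays lay above both wild-type ones, beside 20.2%. The locus was chosen for high wild-type LSK and low wild-type GMP levels on these same wild-type arrays, which favours both counts. They support no genotype difference. No R probe of the locus was called between genotypes, and the LSK median of −0.85 turned to 0.049 with normexp background correction. Both named probes showed the same order of the 4 groups, wild-type LSK, deficient LSK, deficient GMP and wild-type GMP from high to low.

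At chr3:30032959-30133959, 32 of 35 probes were kept, and all 26 kept R probes had a lower level in GMP, also under the other scalings (median −3.75). Of these, 11 were called and 24 did not overlap. None of the 6 kept F probes was called (median −0.45). Probe A_30_P01020104 (chr3:30059174-30060808, R) read 0.13 and −1.79 on the wild-type and −2.48 and −3.13 on the deficient LSK arrays, and −7.11 and −6.99 on the wild-type and −6.35 and −4.97 on the deficient GMP arrays. Every LSK array lay above every GMP array, and both wild-type LSK arrays lay above both deficient ones. The difference in wild type was −6.23 (SE 0.83, adjusted p = 0.00859), at least 33.9-fold. In the deficient mice the R probes of this locus had a median difference of −2.73, all 26 were negative and 20 did not overlap, beside 20.9% of all kept probes.

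At chr6:30983012-31293337, 36 of 52 probes were kept, and 4 of 14 F probes and 4 of 22 R probes were called lower in GMP. Probe A_30_P01031155 (chr6:31170350-31287353, F) had the furthest drop of all interval probes. It read 1.03 and 1.02 on the wild-type and 0.25 and −0.60 on the deficient LSK arrays, and −5.88 and −6.08 on the wild-type and −6.38 and −4.58 on the deficient GMP arrays. The replicates of wild-type LSK nearly coincided, and all GMP arrays lay far below all LSK arrays. The difference was −7.01 (SE 0.76, adjusted p = 0.00506), at least 123-fold, and −5.31 (SE 0.76, adjusted p = 0.116) in deficient mice, where it was not called. The F probes had a median difference of −1.83 with 14 of 14 negative (13 of 14 after quantile normalization or a median shift), and the R probes a median of −0.72. Of the 8 loci, this one and chr3:131128972-131163308 had called probes on both strands.

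At chr9:96632664-96683617, 5 of 14 kept R probes and none of 12 kept F probes were called lower in GMP. Probe A_30_P01020519 (chr9:96664617-96683617, R) read −0.21 and −1.40 on the wild-type and −1.64 and −1.05 on the deficient LSK arrays, and −7.11 and −7.56 on the wild-type and −4.51 and −5.76 on the deficient GMP arrays, with no overlap between the populations. The difference in wild type was −6.53 (SE 0.74, adjusted p = 0.00598), at least 34.4-fold. The same interval held 7 kept F probes, and their differences ran from −2.44 to 0.56. At chr10:83181374-83249918, 4 of 12 kept F probes and none of 9 kept R probes were called lower in GMP. Probe A_30_P01033518 (chr10:83181374-83249774, F) read 1.21 and 1.51 on the wild-type and 0.85 and −0.47 on the deficient LSK arrays, and −2.71 and −3.13 on the wild-type and −1.46 and −1.23 on the deficient GMP arrays, a difference of −4.28 (SE 0.69, adjusted p = 0.0166) in wild type. Its GMP arrays lay below its LSK arrays in each genotype. At these loci 13 of 14 and 10 of 12 differences on the called strand were negative, and with a median shift 10 of 14 and 8 of 12.

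The locus at chr6:40693617-40720167, which is 26551 bp long, went the other way. Of its 7 kept F probes 6 were called higher in GMP of wild-type mice, with a median difference of 6.66, and all 7 differences were positive under each scaling. None of its 3 kept R probes was called, and theirs ran from −0.33 to 0.77. Probe A_30_P01018926 (F) read −6.59 and −5.10 on the wild-type and 0.81 and 0.83 on the deficient LSK arrays, and 1.68 and 1.56 on the wild-type and 3.48 and 1.14 on the deficient GMP arrays. The wild-type LSK arrays stood far below the 6 others, and the deficient LSK arrays lay just below the GMP arrays. The difference between the wild-type populations was 7.46 (SE 0.88, adjusted p = 0.0064) and that between the deficient ones 1.49. The −6.59 is the lowest level of wild-type LSK replicate 1, so the wild-type difference and its SE rest in part on an unmeasured value. Probe A_30_P01021982 (chr6:40699474-40719122, F) read −6.59 and −5.64 on the wild-type and 0.37 and −0.21 on the deficient LSK arrays, and 1.43 and 1.10 on the wild-type and 3.25 and 0.77 on the deficient GMP arrays, in the same order. It was above background on neither wild-type LSK array, and its difference of 7.38 (SE 0.87, adjusted p = 0.0064) between the wild-type populations is a ratio of at least 102-fold.

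At chr3:131128972-131163308, 1 of 5 kept F probes and 3 of 5 kept R probes were called higher in GMP of wild-type mice. All 5 R differences were positive under each scaling (median 4.44), and on all 5 both GMP arrays lay above both LSK arrays, beside 26.5% of all kept probes. The choice of the locus on this comparison favoured that count. Probe A_30_P01033297 (R) read −6.59 and −7.92 on the wild-type and −3.89 and −3.21 on the deficient LSK arrays, and −0.95 and −1.09 on the wild-type and −4.99 and −2.96 on the deficient GMP arrays. The wild-type GMP arrays lay above all others, and the deficient GMP arrays overlapped with the deficient LSK arrays. The difference in wild type was 6.23 (SE 0.84, adjusted p = 0.00889), at least 30.1-fold, and in deficient mice it was −0.42. At chr2:127988295-128250301, 2 of 16 kept R probes were called higher in GMP, 15 of 16 were positive under each scaling, and 13 did not overlap. Probe A_30_P01026520 (chr2:128211990-128215223, R) read −6.59 and −6.59 on the wild-type and −2.48 and −2.26 on the deficient LSK arrays, and −0.66 and −1.39 on the wild-type and −1.92 and −2.77 on the deficient GMP arrays, a difference of 5.57 (SE 0.66, adjusted p = 0.00644) between the wild-type populations and of 0.027 between the deficient ones. It was above background on neither wild-type LSK array, so the wild-type ratio is at least 29-fold. None of the 7 kept F probes there was called, and their median difference was 0.020.

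**Figure D4:**
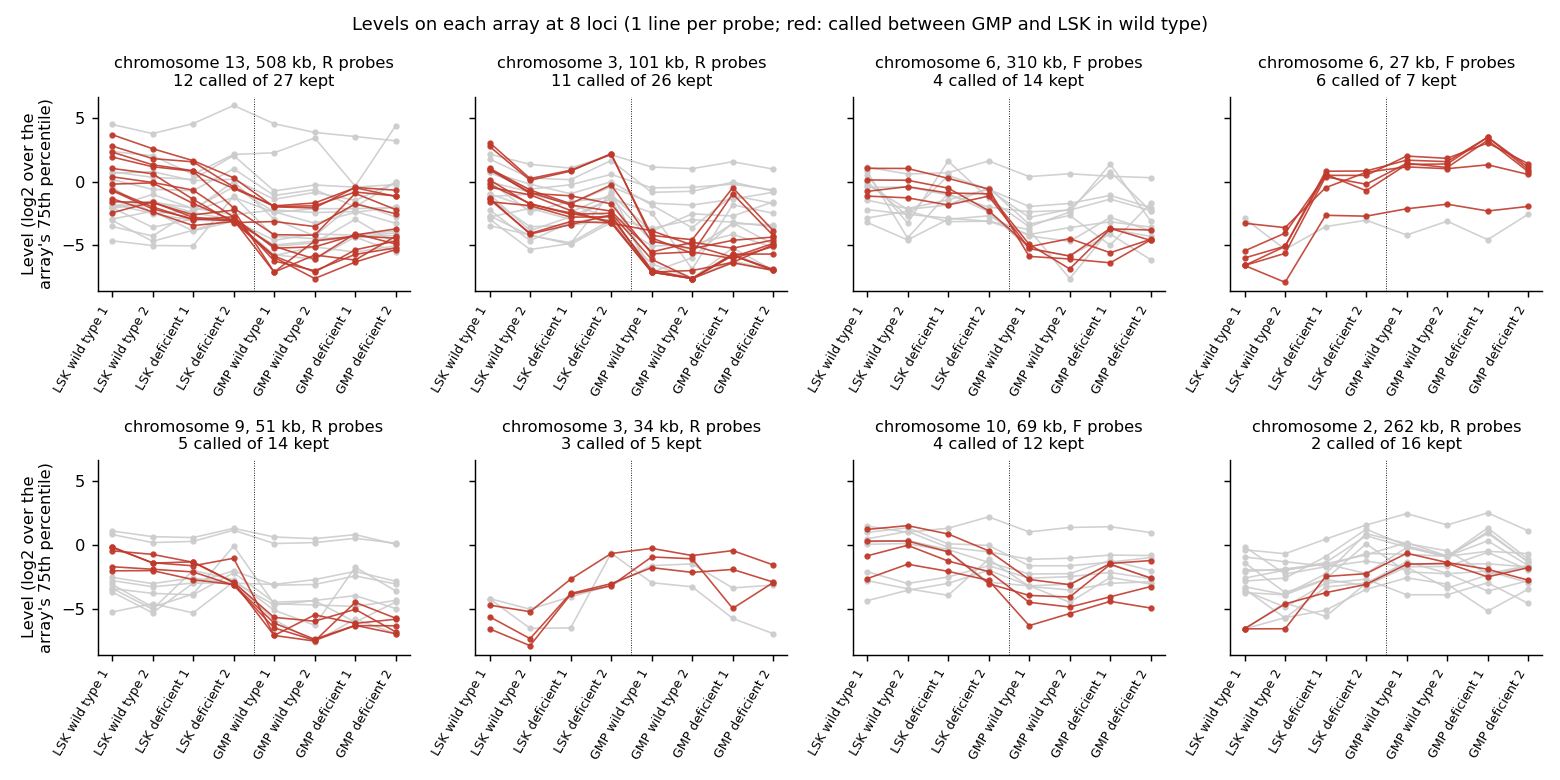
Level on each of the 8 arrays (log2 over the 75th percentile of the array) at the 8 loci, 1 line per kept probe of the strand with the most called probes (F at the chromosome 6 locus where each strand has 4). Probes called between GMP and LSK in wild type are red: they drop from LSK to GMP at 5 loci and climb at 3, and lines join the arrays only to mark the same probe.

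Other called probes lay outside these loci. Probe A_30_P01030979 (chr10:120336296-120354471, R) read −1.31 and −1.40 on the wild-type and −3.42 and −1.88 on the deficient LSK arrays, and −7.11 and −7.62 on the wild-type and −5.93 and −6.98 on the deficient GMP arrays, lower in GMP on every array. Its difference of −6.01 (SE 0.75, adjusted p = 0.00697) is at least 23.5-fold, while 2 kept F probes of the same interval had differences of −0.26 and −0.0088. Probe A_30_P01031178 (chr13:99870660-99877535, F) read −6.59 and −6.51 on the wild-type and −6.47 and −2.91 on the deficient LSK arrays, and −1.71 and −1.16 on the wild-type and −3.17 and −2.16 on the deficient GMP arrays, with wild-type GMP above the rest, and its difference was 5.11 (SE 1.05, adjusted p = 0.0468), at least 21.2-fold.

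A list of 43 named long noncoding RNA genes gave a comparison outside the interval probes. Of the 25 on the array 23 were kept, 1 was called lower in GMP of wild-type mice and none higher, with a median difference of −0.063. The called gene was Meg3, a maternally expressed imprinted RNA, which read −0.10 and −0.052 on the wild-type and −0.74 and −1.15 on the deficient LSK arrays, and −4.77 and −6.87 on the wild-type and −3.84 and −3.36 on the deficient GMP arrays. Its wild-type difference was −5.74 (adjusted p = 0.00944), and all its GMP arrays lay below all its LSK arrays. Morrbid, an RNA that regulates the survival of short-lived myeloid cells, had a difference of 3.02 and was not called (adjusted p = 0.244). None of the 23 was called between genotypes in LSK, in GMP or on average.

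Deficient and wild-type LSK were compared to see which intervals differ with loss of ACKR1. Of the kept interval probes 9 were called, all higher in deficient LSK (0.0891%, beside 0.202% of all kept probes), and 915 (9.06%) had an unadjusted p under 0.05, beside 8.54% of all kept probes. With normexp background correction, quantile normalization, array weights or no filter on dim probes 0 were called, and with the median shift 1. In GMP limma called none (0.107% of all kept probes), with 355 (3.52%, beside 4.58% of all kept probes) at an unadjusted p under 0.05 and 3 called when arrays were weighted. In the average of both populations 8 were called higher and 1 lower, beside 0.468% and 0.00256% of all kept probes (0.471% together). Together these were 13 probes, 12 of them higher, of which 5 were called in LSK and in the average, 4 in LSK only and 4 in the average only. The LSK calls rested on the LSK arrays: without deficient LSK replicate 2, the weak array, none was called, as without either wild-type LSK array, and with deficient LSK replicate 1 left out 578 were called higher and 54 lower (632 in all, 6.26%), beside 6.63% of all kept probes. The average had 2 calls without the weak array, 3 without either wild-type LSK array or without deficient GMP replicate 1, and 4 and 5 without wild-type GMP replicates 1 and 2. With normexp background correction its calls were 9 higher and 8 lower. In GMP 3 were called without deficient GMP replicate 2.

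The medians moved with the weak array as well. The kept interval probes had a median difference of 0.65 in LSK, beside 0.20 for all kept probes, and without deficient LSK replicate 2 the medians were 0.081 and −0.055. In GMP the medians were 0.21 and 0.15. A shift of each array to its median took the LSK medians to 0.077 for the interval probes and −0.37 for all kept probes.

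Genes of mature blood cells moved with genotype in the same arrays. Of 18 kept genes of secondary and tertiary neutrophil granules 13 were called higher in the average, with medians of 6.21 in LSK and 5.67 in GMP. The sum of their linear levels, in units of the 75th percentile of each array, ran from 10.5 to 20.9 in wild-type LSK and from 1488 to 3334 in deficient LSK. In GMP it ran from 22.9 to 40.7 in wild type and from 1346 to 3634 in deficient. Of 19 kept erythroid genes 12 were called higher in the average, and their sums ran from 39.9 to 106 in wild-type and from 1613 to 8577 in deficient LSK, and from 12.7 to 18.4 in wild-type and from 1637 to 3070 in deficient GMP. Among the granule genes, 7 and 4 of 18 were not above background in wild-type LSK and 5 and 3 in wild-type GMP. Of 12 kept B lineage genes 5 were called higher, and of 10 kept T and NK genes none. Their part in the results for interval probes was not tested.

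The furthest difference was that of A_30_P01020131 at chr17:56687541-56694631, R, an interval of 7091 bp. It read −6.59 and −7.70 on the wild-type and 0.30 and 2.15 on the deficient LSK arrays, and −4.83 and −4.60 on the wild-type and 1.09 and −0.41 on the deficient GMP arrays. All 4 deficient arrays lay above all 4 wild-type arrays, and wild-type LSK was at the bottom of the scale. The probe passed the filter through the deficient groups alone, so it had to be bright there, and this separation follows in part from that choice. The difference was 8.37 (SE 0.85, adjusted p = 0.0118) in LSK, at least 143-fold, and 6.71 (SE 0.60, adjusted p = 0.0015) on average. In GMP it was 5.05 (SE 0.85, adjusted p = 0.089) and not called. The 3 other kept probes of that strand had LSK differences from −0.49 to 1.15, and the 5 kept F probes from 0.45 to 2.05, so 1 probe of the interval stood apart from the rest.

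At chr12:32781477-32808567, R, all 3 probes of the interval were kept and ran together. Probe A_30_P01017808 read −6.59 and −7.14 on the wild-type and 1.19 and 0.58 on the deficient LSK arrays, and −4.62 and −4.41 on the wild-type and 2.67 and −1.06 on the deficient GMP arrays. Probe A_30_P01032506 read −6.59 and −7.92 on the wild-type and 0.79 and −0.23 on the deficient LSK arrays, and −6.45 and −5.04 on the wild-type and 2.35 and −1.61 on the deficient GMP arrays. Both were higher on each deficient array than on each wild-type array. Probe A_30_P01032506 passed the filter through the deficient groups alone, so it had to be bright there, and A_30_P01017808 passed it through wild-type GMP as well. Their LSK differences were 7.75 (SE 1.06, adjusted p = 0.0268) and 7.54 (SE 1.19, adjusted p = 0.0496), at least 112-fold and at least 74.3-fold, and both were called in the average. The third probe, A_30_P01024278, had 4.09 in LSK and 4.05 in GMP and was called in neither (average 4.07, adjusted p = 0.0583).

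Probe A_30_P01023498 at chr8:24327427-24332452, F, was above background in deficient LSK alone. It read −6.59 and −7.92 on the wild-type and −1.24 and 0.76 on the deficient LSK arrays, and −7.11 and −7.62 on the wild-type and −5.79 and −6.98 on the deficient GMP arrays. Both deficient LSK arrays stood above the other 6, none of which was above background. It was kept through deficient LSK alone, so it had to be bright there, and its difference follows in part from that choice. Without the filter on dim probes no interval probe was called in LSK. The LSK difference was 7.01 (SE 0.87, adjusted p = 0.0178), at least 51.6-fold, and it was the only one of 5 F probes of its interval to be kept. The 4 kept R probes had LSK differences from 0.045 to 0.95. Over all kept interval probes, 15 were above background on both arrays of deficient LSK and on no other array. Corresponding counts were 71 for wild-type LSK, 23 for wild-type GMP and 8 for deficient GMP. After A_30_P01023498 (at least 29.9-fold over the next group), the deficient LSK probes with the furthest bound were A_30_P01031573 (chr2:94046243-94070067, F; at least 18.1-fold) and A_30_P01025868 (chr3:68867193-68876128, F; at least 16.2-fold). Probe A_30_P01025868 read −4.02 and 1.76 on the deficient LSK arrays, and the high value was that of the weak array.

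The F probes at chr6:40693617-40720167, called higher in GMP of wild-type mice, were also higher in deficient than in wild-type LSK. Of the 7, 4 were called (A_30_P01018926, A_30_P01021982, A_30_P01027687 and A_30_P01026532), with LSK differences of 6.66, 6.20, 5.23 and 4.57. None of the 4 was above background on wild-type LSK replicate 1, and A_30_P01021982 and A_30_P01026532 on neither wild-type LSK array, so that their ratios are at least 44.8-fold and 9.48-fold. For A_30_P01026532 the weak array was not above background either, so that its bound rests in part on an unmeasured value. On A_30_P01018926 the difference had an SE of 0.88 (adjusted p = 0.0233). Their GMP differences lay between −0.17 and 0.74. All 7 LSK differences were positive with the median shift, and 6 of 7 after quantile normalization. Without the weak array the median of the 7 was 5.23 as with it, and none was called. Probe A_30_P01026520 at chr2:128211990-128215223, R, whose values are given above, was also called higher in deficient LSK, by 4.22 (SE 0.66, adjusted p = 0.0496), at least 11.4-fold, and had −1.32 in GMP. Of the 4 LSK arrays only deficient LSK replicate 1 was above background for it, so that this bound too rests in part on an unmeasured value. Of the 13 probes called between genotypes, 5 were thus also called between the wild-type populations, and both comparisons use the wild-type LSK arrays.

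The other 4 probes were called in the average alone. Probe A_30_P01032590 (chr16:64758224-64765674, R) read −5.67 and −5.26 on the wild-type and −1.31 and −3.16 on the deficient LSK arrays, and −7.11 and −5.49 on the wild-type and −1.83 and −1.10 on the deficient GMP arrays. Probe A_30_P01018380 (chr16:64761963-64762369, R), whose interval lies inside that one, read −5.31 and −5.76 on the wild-type and −2.14 and −3.12 on the deficient LSK arrays, and −7.01 and −5.44 on the wild-type and −2.50 and −1.76 on the deficient GMP arrays. Both were higher on the deficient than on the wild-type arrays of each population, by 4.03 (SE 0.60, adjusted p = 0.0226) and 3.50 (SE 0.54, adjusted p = 0.0266) on average. Probe A_30_P01030127 (chr1:162933979-162944379, F) was higher by 2.93 (SE 0.52, adjusted p = 0.0492), while the 3 other kept F probes of its interval had averages from 0.0023 to 0.54. None of these 3 called probes was well above background on the weak array or on either wild-type GMP array. All 3 passed the filter through deficient GMP alone, so they had to be bright there, and their differences follow in part from that choice. Without the filter on dim probes, the calls in the average among all interval probes fell from 9 to 3.

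A single interval probe was called lower in deficient mice, A_30_P01017437 at chr12:81221532-81232030, F. It read −1.31 and −1.30 on the wild-type and −2.84 and −3.18 on the deficient LSK arrays, and −1.70 and −2.07 on the wild-type and −6.23 and −5.12 on the deficient GMP arrays. The wild-type arrays were close to each other, and the deficient GMP arrays lay furthest down. The average difference was −2.75 (SE 0.47, adjusted p = 0.045), with −1.70 in LSK and −3.79 in GMP, and the other kept F probe of the interval had 0.30. It was not above background on the weak array or on either deficient GMP array. The probe passed the filter through the wild-type groups alone, so it had to be bright there.

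**Figure D5:**
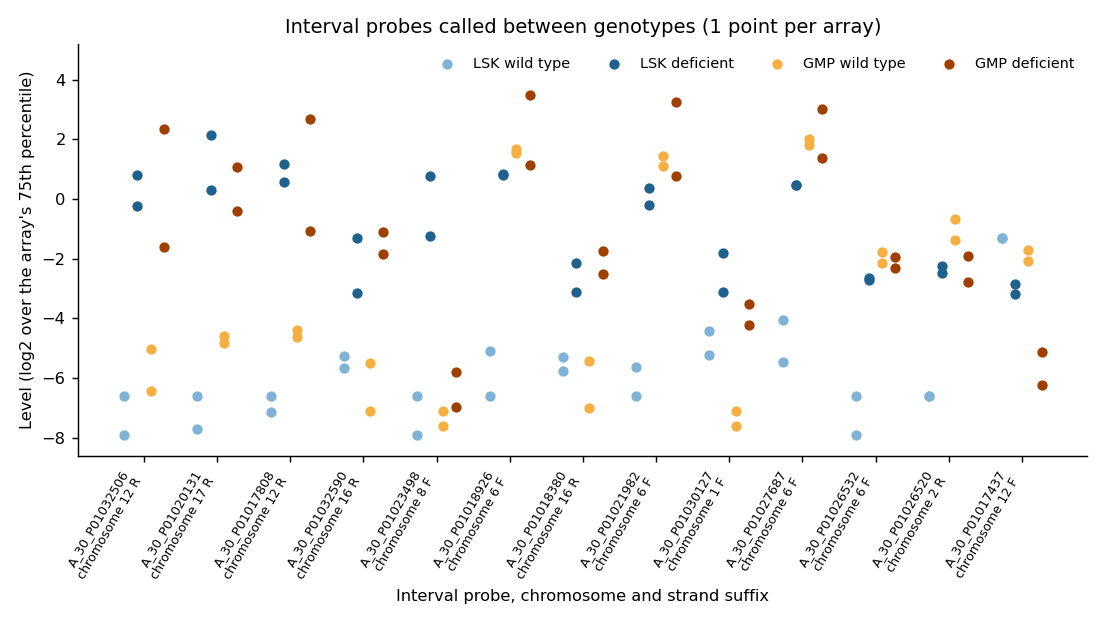
Level on each array (log2 over the 75th percentile of the array) of the 13 interval probes called between genotypes, ordered by their average difference, with 1 point per array and 4 colours for the groups. The wild-type LSK points (light blue) lie between −7.92 and −4.05 for the 12 probes that were higher in deficient mice, and at −1.31 and −1.30 for the probe that was lower.

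Other lower differences in deficient mice were not called, though several came from probes of the same interval. Of the 5 lower probes with the smallest p in LSK, 3 were R probes at chr15:68161768-68193518, and A_30_P01023072 read 0.077 and 2.10 on the wild-type and −1.26 and −2.56 on the deficient LSK arrays, and 1.79 and 0.68 on the wild-type and −0.67 and −0.44 on the deficient GMP arrays. Its LSK difference was −3.00 (SE 0.86, adjusted p = 0.459). A pair of F probes at chr10:96098058-96098623 was above background on all 8 arrays. Probe A_30_P01027893 there read 2.61 and 2.14 on the wild-type and 0.27 and 0.25 on the deficient LSK arrays, and 1.87 and 0.98 on the wild-type and −1.59 and −0.52 on the deficient GMP arrays, with both deficient arrays below both wild-type arrays in each population. Its average difference was −2.30 (SE 0.49, adjusted p = 0.137), and that of A_30_P01020856 was −2.39 (SE 0.52, adjusted p = 0.149). Probe A_30_P01025936 (chr8:124355710-124401160, R) had an average of −3.55 (SE 0.79, adjusted p = 0.159). In GMP, A_30_P01030682 (chr5:77084398-77086144, R) had 4.91 (SE 0.95, adjusted p = 0.158) and A_30_P01022314 (chr6:83368261-83407280, F) had −3.55 (SE 0.86, adjusted p = 0.397), and neither was called. Wild-type GMP was not above background for A_30_P01030682, so its ratio is at least 13.4-fold.

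The difference between the genotype effects in GMP and LSK was tested directly, and limma called no probe of any kind (0% of all kept probes). Among the interval probes 214 (2.12%) had an unadjusted p under 0.05, beside 2.39% of all kept probes, and the smallest adjusted p was 0.755, that of A_30_P01026520. None was called under any of the alternatives fitted. An interval probe that was called in LSK and not in GMP is therefore not shown to differ between the populations.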

How the data were processed

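RNA of 8 samples was hybridised to 1-colour Agilent arrays, scanned once on 1 slide. The intensities the authors deposited are processed signals, background-subtracted by Feature Extraction 10.7.3.1 on a design of build mm9 and not normalized between arrays, per the file headers. Controls and outlier spots were dropped, spots of a probe were averaged, and log2 values were centred on the 75th percentile of each array. Probes well above background on both arrays of some group entered 1 limma 3.58.1 fit over 39099 probes (R 4.3.3; 4 residual and 5.70 prior degrees of freedom), with contrasts for genotype in LSK, in GMP and on average, for population in each genotype and for their difference, and Benjamini-Hochberg adjustment. The fit was tested on simulated data. The authors also deposited a table of processed log2 values with unstated centring, which was an alternative. It followed the scanner values at r of 0.99967 to 0.99996 per array, with column medians from −0.27 to 1.25.

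Alternatives were background correction, scaling, filters, array weights, moderation, the replicate number as a block, and leaving out arrays. The interval probes and gene lists were chosen with earlier results of these data known. Probes named are up to 10 called in each direction by size of difference, otherwise the 5 with the smallest p, besides 8 loci, intervals with both strands kept, and probes above background in 1 group alone. Example probes at the loci and in the text outside these were chosen after their values were seen.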

Additional observations from a re-analysis of the deposited data

Results flagged for a closer look

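Of the 32 interval probes named in a genotype comparison, which were chosen on their genotype differences or on how these differ, 7 were picked out because both deficient arrays lay on one side of both wild-type arrays in LSK and on the other side in GMP. The same held for 287 of the 10099 kept interval probes (2.84%) and for 3.36% of all kept probes. The difference of their genotype effects (GMP minus LSK) was not called for any of them in the fit over all kept probes, with adjusted p between 0.755 and 0.975. For A_30_P01026520 (chr2:128211990-128215223, R) it was −5.54, from 4.22 in LSK and −1.32 in GMP. For A_30_P01033297 (chr3:131128972-131163308, R) it was −6.65, from 3.70 in LSK and −2.95 in GMP. At the chromosome 13 locus, 3 R probes went the other way, with 4.32 for A_30_P01023783, 4.81 for A_30_P01019384 and 3.62 for A_30_P01022276. So did A_30_P01033328 (chr10:83185606-83225506, F) at 4.06 and A_30_P01022168 (chr1:88384134-88384902, F) at 3.06. The weak array, deficient LSK replicate 2, enters each of these values.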

How the results depend on the processing

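The analysis called 9 interval probes between genotypes in LSK, 0 in GMP and 9 on average, and 71 between populations in wild type, 0 in deficient mice and 0 for the difference of the genotype effects. With normexp background correction the counts were 0 in LSK, 17 on average, 28 in wild type and 62 in deficient mice. With quantile normalization they were 0 in LSK, 2 on average and 7 in wild type, and with a shift to the array median 1, 1 and 29. Without the filter on dim probes they were 0, 3 and 21, and with a filter on the mean level 5 on average. With 1 probe per feature they were 4 in LSK and 16 in wild type. With array weights they were 0 in LSK, 3 in GMP, 4 on average and 336 in wild type. With only the groups compared in the fit, 160 were called in wild type and 46 in deficient mice. Without deficient LSK replicate 2 and deficient GMP replicate 1 together, 0 were called in LSK, 2 on average and 160 in wild type. Leaving out each array in turn gave 0 to 632 in LSK, 0 to 3 in GMP, 2 to 11 on average, 0 to 84 in wild type, 0 to 989 in deficient mice and 0 to 0 for the difference. The cause of these shifts was not tested, except that the array left out and the number of probes tested follow from each setting. Counts not listed stayed within 1.5 times the main count, and with trend and robust moderation or the authors' table every count did.

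The replicate numbers were not shown to pair the arrays: deviations of arrays with the same number correlated at −0.29 in LSK and 0.26 in GMP over all kept probes. With the replicate block the counts were 9 in LSK, 0 in GMP, 11 on average, 73 in wild type, 0 in deficient mice and 0 for the difference. With the numbers of deficient LSK crossed, a pairing chosen after seeing the data, they were 40, 2, 51, 98, 1 and 0.

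Of 77 single differences given by the rule for named probes, 1 changed sign under any setting, that of A_30_P01031362 in GMP (chr6:28161665-28189840, F), which was −2.76 and became 0.054 under normexp, not called in either. Of the 38 called ones, 3 were still called without wild-type LSK replicate 1, 9 after quantile normalization, 13 under normexp and 17 with the median shift. With 2 arrays a group, only differences several times the usual standard error (median 0.79 for the interval probes) could be called, and in deficient LSK replicate 2 the dim signals of most interval probes could not be measured.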
